A study of Mus musculus with 6 samples.

Results

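The genes of MHC class II antigen presentation were taken as 8 of the 23504 genes in the table, namely H2-Aa, H2-Ab1 and H2-Eb1 (the peptide-binding chains), Cd74 (the invariant chain), H2-DMa, H2-DMb1 and H2-DMb2 (the peptide exchange factor H2-M) and Ciita (the class II transactivator). They were chosen by name, through the Ensembl identifiers of the rows, with earlier results of these data known. All 8 were in the table. RNA-seq was available for bone marrow-derived macrophages (BMMs) from young adult male C57BL/6 mice, with 3 libraries of BMMs given the pyruvate kinase M2 activator DASA-58 and 3 libraries given the solvent DMSO. RNA was taken after 3 days. The study's results describe both groups as induced with RANKL, the cytokine that drives osteoclast formation, whereas its methods name RANKL for the treated cells and leave the DMSO cells open. The methods also write DASA-48 where the labels write DASA-58, and no concentration was given for these libraries. Nothing stated whether the 3 replicates of a group came from separate mice or cultures, so the p-values below measure the spread between these libraries, which may be technical.

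Class II molecules are built from an alpha and a beta chain and carry peptides from the endosome to the cell surface, where CD4+ T cells read them. The invariant chain, encoded by Cd74, fills the groove of new class II molecules and guides them to the endosome, where cathepsins cut it down to a small peptide that H2-M then exchanges for antigen. CIITA binds no DNA itself and switches these genes on together through RFX, NF-Y and CREB factors seated at the X and Y boxes of their promoters. Macrophages hold little class II until interferon gamma, acting in part through IRF1, raises Ciita. In C57BL/6 mice the gene of the I-E alpha chain is defective, so that H2-Eb1 transcripts have no partner chain for a surface I-E molecule.

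Promoter sequence was at hand in the RefSeq table (GRCm38.p6, 250 bases before to 50 bases after a gene start) for 5 of the 8 genes: H2-DMa, H2-DMb1, H2-DMb2, H2-Aa and H2-Eb1. Those of H2-Ab1, Cd74 and Ciita were not used here. The windows are shown because the X and Y boxes are the sequence that class II genes have in common. Capitals mark ACNGATG, taken here as the core of the X box, and ATTGG, the Y box. Each window is written 5′ to 3′ on the strand of its gene. The motifs were taken from their textbook forms after the promoters had been seen, and both strands were searched.
H2-Eb1, chr17:34305759-34305827, plus strand: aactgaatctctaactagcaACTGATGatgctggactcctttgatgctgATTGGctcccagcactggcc
H2-DMb1, chr17:34153080-34153149, plus strand: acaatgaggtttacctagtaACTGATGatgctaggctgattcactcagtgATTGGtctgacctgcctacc
H2-DMb2, chr17:34145109-34145178, plus strand: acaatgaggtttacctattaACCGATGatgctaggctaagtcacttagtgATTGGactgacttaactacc
H2-Aa, chr17:34287852-34287918, minus strand: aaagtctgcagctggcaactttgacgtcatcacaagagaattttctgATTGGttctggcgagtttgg
In H2-Eb1 the X core was followed by the Y box after 22 bases, and in H2-DMb1 and H2-DMb2 after 23 bases. The X core began 88, 91 and 120 bases before the gene start in H2-Eb1, H2-DMb1 and H2-DMb2, respectively. H2-Aa held the Y box in the window shown and an ACNGATG elsewhere in its promoter but no such pair, and of the 2 starts listed for H2-DMa the first held neither motif and the second the Y box only. Among all 32817 promoters of the same length, ACNGATG was present in 9.85%, ATTGG in 37.4%, and ACNGATG followed on the same strand by ATTGG after 10 to 30 bases in 0.158%. These matches are letters in a window, not measured binding sites. X boxes of another spelling were not searched for, so a promoter without the pair, such as that of H2-Aa, may still hold one.

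The class II genes spanned a wide range of levels in these BMMs, with the chain genes, H2-DMb2 and Ciita low in both groups. H2-DMb1 was the highest at 17.4 ± 0.813 FPKM with DMSO (SD, n = 3; FPKM is fragments scaled to gene length and to library depth), and Ciita was the lowest at 0.176 ± 0.10 FPKM (SD, n = 3). With DASA-58, Cd74 was lower at 79.5% of its DMSO mean and was the only class II gene past the test. The other 4 class II genes tested, H2-DMb1, H2-DMa, H2-Eb1 and H2-Ab1, did not pass it, and the 3 remaining ones, H2-Aa, H2-DMb2 and Ciita, had a mean below 1 FPKM and were not part of the fit.

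**Figure D1:**
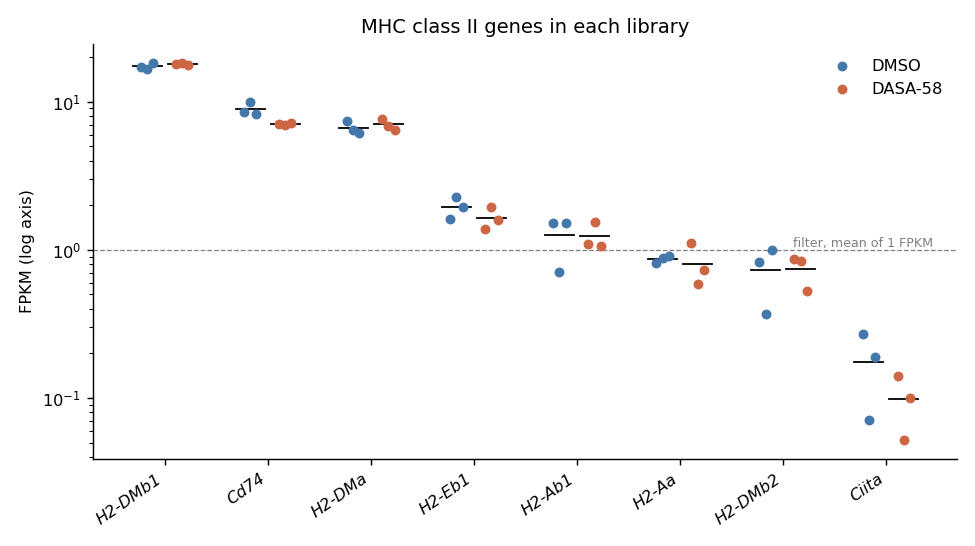
FPKM of the 8 class II genes on a log axis, in order of their mean, with 1 point per library (blue, DMSO; orange, DASA-58) and a bar at each group's mean; the dashed line marks the mean of 1 FPKM needed to enter the test. Cd74 is the only gene whose DASA-58 points, from 6.98 to 7.22 FPKM, all lie below its DMSO points, from 8.26 to 9.97 FPKM.

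Cd74 encodes the invariant chain, the chaperone of new class II molecules. It was at 8.58, 9.97 and 8.26 FPKM in the DMSO libraries and at 7.12, 6.98 and 7.22 FPKM in the DASA-58 libraries. The groups did not overlap, and the DASA-58 libraries lay close together while DMSO replicate 2 was the highest of the 6. The mean went from 8.94 ± 0.909 FPKM to 7.10 ± 0.119 FPKM (SD, n = 3 each). The log2 fold change on log2(FPKM + 1) was -0.29 (standard error 0.065, 95% interval -0.44 to -0.14; limma, p adjusted by Benjamini-Hochberg to 0.029 across the 10965 genes whose mean reached 1 FPKM). Among all genes tested, 7.28% were called lower and 4.24% higher, and the 5 class II genes tested gave 1 lower and 0 higher. For 21.6% of all genes tested the DASA-58 libraries all lay below the DMSO libraries, and for 11.8% they all lay above, so the separation of the groups at Cd74 is a common one in this table. An exact permutation test of Cd74 gave a two-sided p of 0.10, the smallest that 3 libraries against 3 allow.

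The fragments behind Cd74 numbered 222, 265 and 212 with DMSO and 189, 179 and 193 with DASA-58. From these counts alone the DASA-58 level was 79.4% of the DMSO level, with a 95% interval of 71.0 to 88.9% that covers counting error only. The variance between replicates was 1.2 times that expected from counting. The call of Cd74 was lost in 8 of the 18 alternative fits, with an adjusted p of 0.051 when each library was centred on its median, 0.098 with no filter on low values and 0.13 without variance shrinkage. It was also lost without DMSO replicate 1 (adjusted p = 0.061) and without DASA-58 replicate 1, 2 or 3 (0.078, 0.083 and 0.073), while its log2 fold change stayed between -0.34 and -0.20 over all 18.

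**Figure D2:**
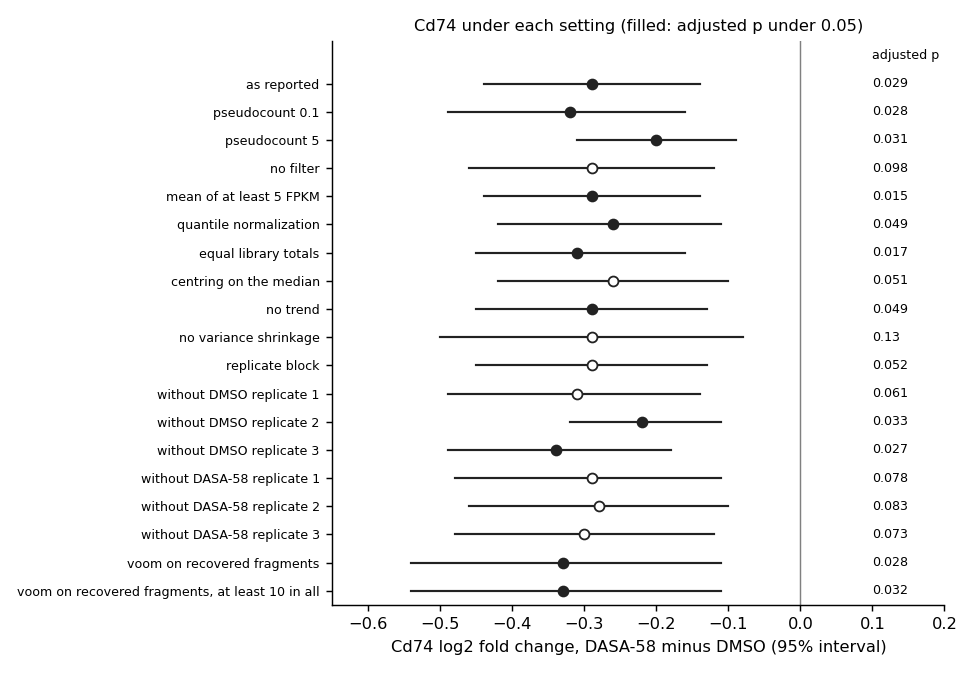
Log2 fold change of Cd74, DASA-58 minus DMSO, with its 95% interval, as reported and under each of 18 alternative fits; filled points have an adjusted p under 0.05, and the adjusted p is printed at the right. Of the alternatives, 10 are filled and 8 are open, and all intervals lie below 0.

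The chain genes were far lower than Cd74. H2-Eb1, the I-E beta chain, was at 1.61, 2.28 and 1.95 FPKM with DMSO and 1.39, 1.95 and 1.60 FPKM with DASA-58. The groups overlapped, and its log2 fold change was -0.15 (95% interval -0.41 to 0.10, adjusted p = 0.42, limma). H2-Ab1, the I-A beta chain, was at 1.53, 0.713 and 1.51 FPKM with DMSO and 1.10, 1.54 and 1.06 FPKM with DASA-58, so that DMSO replicate 2 was the lowest library and DASA-58 replicate 2 the highest. Its log2 fold change was 0.01 (95% interval -0.38 to 0.39, adjusted p = 0.98, limma), and the variance between its replicates was 3.5 times what counting alone would give. H2-Aa, the I-A alpha chain, was at 0.814, 0.877 and 0.908 FPKM with DMSO and 1.11, 0.587 and 0.731 FPKM with DASA-58. The DASA-58 libraries of H2-Aa lay on either side of the DMSO libraries, and an exact permutation test of the means gave a two-sided p of 0.80.

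The chain genes rested on few fragments, which limits what could be seen. H2-Eb1 had 31 to 51 fragments per library, H2-Ab1 22 to 46 and H2-Aa 20 to 39. In these counts the DASA-58 level was 84.3% (64.7 to 110%) of DMSO for H2-Eb1, 99.0% (75.6 to 130%) for H2-Ab1 and 93.5% (68.7 to 127%) for H2-Aa, where the brackets are 95% intervals for counting error only. Summed over the 3 chain genes, FPKM was 3.96, 3.88 and 4.37 with DMSO and 3.60, 4.08 and 3.40 with DASA-58, a difference of -0.37 FPKM (exact permutation test, two-sided p = 0.30) that became -0.22 without DMSO replicate 3, -0.23 without DASA-58 replicate 3 and -0.57 without DASA-58 replicate 2. The ratio of Cd74 to this sum was 2.17, 2.57 and 1.89 with DMSO and 1.98, 1.71 and 2.12 with DASA-58. These ratios overlapped between the groups (exact permutation test of the log2 ratio, two-sided p = 0.40), so a change of Cd74 relative to the chains was not detectable at this depth.

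H2-M, the peptide exchange factor of the endosome, is made of the H2-DMa alpha chain and a beta chain from H2-DMb1 or H2-DMb2. H2-DMb1 was at 17.2, 16.7 and 18.3 FPKM with DMSO and 18.1, 18.2 and 17.6 FPKM with DASA-58. The groups overlapped, and with 467 to 507 fragments per library this was the best measured of the 8 genes. Its log2 fold change of 0.05 had a 95% interval of -0.05 to 0.14 (adjusted p = 0.49, limma). H2-DMa was at 7.41, 6.46 and 6.19 FPKM with DMSO and 7.70, 6.90 and 6.49 FPKM with DASA-58. The groups overlapped here too, with a log2 fold change of 0.06 (95% interval -0.11 to 0.24, adjusted p = 0.64, limma). Exons of H2-DMa share 360 bases with those of Brd2 on the opposite strand, and how fragments there were counted was not given. The ratio of H2-DMa to the sum of H2-DMb1 and H2-DMb2 was 0.371 ± 0.0456 with DMSO and 0.375 ± 0.0265 with DASA-58 (SD, n = 3 each; exact permutation test of the log2 ratio, two-sided p = 1.0).

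H2-DMb2 was much lower than its neighbour H2-DMb1, at 0.829, 0.372 and 0.996 FPKM with DMSO and 0.870, 0.836 and 0.524 FPKM with DASA-58. The groups overlapped, with 12 to 31 fragments per library (exact permutation test, two-sided p = 0.90). H2-DMb1 exceeded H2-DMb2 by 18.3 to 44.8 times in the DMSO libraries and by 20.9 to 33.7 times in the DASA-58 libraries. The split of fragments between these genes is uncertain where their transcripts are alike. In the GENCODE transcripts their coding sequences had 786 bases each, of which 754 were identical (95.9%), with no gaps. Of all stretches of 50 bases in the H2-DMb1 transcript, 27.2% also occurred in H2-DMb2, and of all stretches of 100 bases 13.7% did. How the authors treated reads that match both genes, and the read length, were not given in the sources used here. The first 150 coding bases show the likeness, with the 2 differing bases in capitals.
H2-DMb1: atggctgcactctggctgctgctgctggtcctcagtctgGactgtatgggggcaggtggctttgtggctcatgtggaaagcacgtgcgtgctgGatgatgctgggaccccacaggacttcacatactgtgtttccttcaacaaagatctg
H2-DMb2: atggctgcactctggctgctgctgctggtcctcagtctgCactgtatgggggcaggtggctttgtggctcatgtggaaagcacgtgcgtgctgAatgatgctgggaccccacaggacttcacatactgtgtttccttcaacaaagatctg

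Ciita, the transactivator that the other class II genes depend on, was near the floor of detection. It was at 0.270, 0.0707 and 0.188 FPKM with DMSO and 0.142, 0.0523 and 0.10 FPKM with DASA-58, from 26, 7 and 18 fragments and from 14, 5 and 10 fragments, respectively. The groups overlapped, and replicate 2 was the lowest library of each. The mean with DASA-58 was 55.7% of that with DMSO, and an exact permutation test of the means gave a two-sided p of 0.30. The difference of -0.078 FPKM became -0.031 without DMSO replicate 1 and -0.13 without DMSO replicate 2. Over the group, 51 fragments stood against 29, a ratio of 56.3% with a 95% interval of 34.4 to 90.5% for counting error only, but the variance between replicates was 3.8 times what counting alone would give. With voom weights on the recovered fragments and no FPKM filter, a setting added after seeing the data, the log2 fold change of Ciita was -0.71 (95% interval -1.69 to 0.28, adjusted p = 0.43, limma). A difference in Ciita was not detectable at this depth. DMSO replicate 2 was the lowest DMSO library for Ciita, H2-Ab1 and H2-DMb2, and the highest for Cd74 and H2-Eb1.

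In order of their mean over the 6 libraries, the genes were H2-DMb1, Cd74, H2-DMa, H2-Eb1, H2-Ab1, H2-Aa, H2-DMb2 and Ciita. H2-DMb1 was 2.21 times Cd74, H2-DMa was 3.81 times H2-Eb1, and H2-DMb2 was 5.39 times Ciita, each with no overlap of the 6 values of both genes. The other neighbours overlapped. Cd74 was above H2-DMa in 5 of 6 libraries, H2-Eb1 above H2-Ab1 in 6 of 6, H2-Ab1 above H2-Aa in 4 of 6, and H2-Aa above H2-DMb2 in 3 of 6. The invariant chain and the H2-M genes H2-DMa and H2-DMb1 therefore stood above the chain genes in level. Among all genes listed, H2-DMb1 was at percentile 86.5 of mean FPKM, Cd74 at 76.2, H2-Eb1 at 58.2 and Ciita at 35.9.

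Class II genes other than these 8 were at or near 0. H2-Oa and H2-Ob, the chains of the H2-M inhibitor H2-O, and H2-Eb2 were in the table and did not reach the mean of 1 FPKM needed for the test. H2-Oa had 11 fragments in all DMSO libraries and 14 in all DASA-58 libraries, H2-Ob had 3 and 5, and H2-Eb2 had 1 and 5. H2-Ea was not analysed here. All class II genes but Ciita and Cd74 lie in the H2 complex on chromosome 17, where the genes of the class I pathway Psmb9, Tap1, Psmb8 and Tap2 stand between the H2-M and the chain genes. These 4, named for their place and not for their values, had DMSO means of 16.0, 23.1, 15.7 and 9.66 FPKM and DASA-58 means of 15.8, 20.9, 14.3 and 8.12 FPKM. Of the 14 genes in this stretch 9 were tested and 0 were called (all genes tested, 7.28% lower and 4.24% higher), and the lowest adjusted p was 0.068, for Brd2 next to H2-DMa (DMSO mean 43.5 FPKM, DASA-58 mean 40.0 FPKM).

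**Figure D3:**
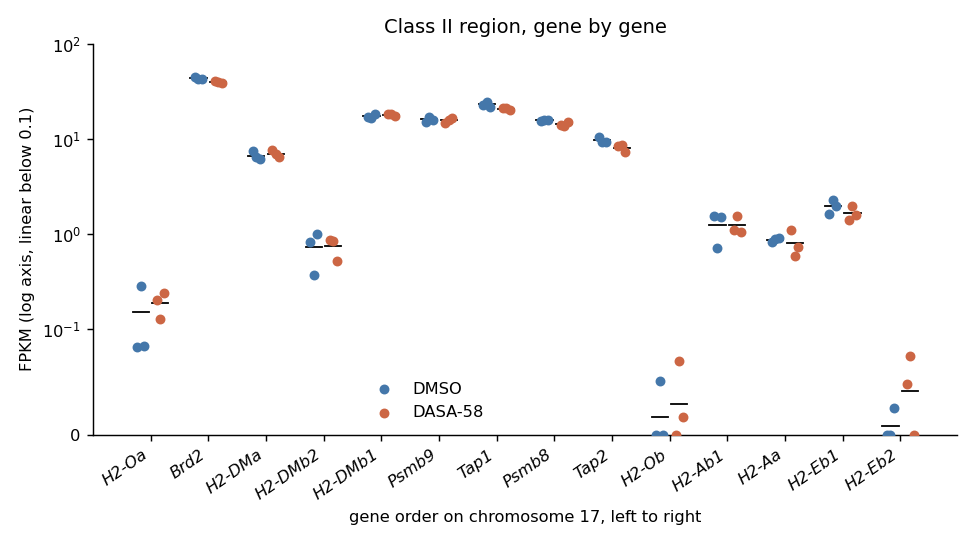
FPKM of 14 genes in their order along the H2 complex, with 1 point per library (blue, DMSO; orange, DASA-58) and a bar at each group's mean, on an axis that is logarithmic above 0.1 and linear below it. The class I pathway genes Psmb9, Tap1, Psmb8 and Tap2 lie above the chain genes H2-Ab1, H2-Aa and H2-Eb1 in all libraries.

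Whether the genes around the class II pathway moved was examined with lists by role. The lists were chosen with earlier results of these data known, so their shares are a description and not a test. Without the 8 genes themselves they held 48 genes, of which 46 were in the table and 41 were tested. With DASA-58, 9 of the 41 rose and 7 fell, where 4.24% of all genes tested rose and 7.28% fell, and the median log2 fold change was 0.00, beside -0.028 over all genes tested. The factors listed for class II promoters did not pass the test. All 8 of these were tested (Rfx5, Rfxank, Rfxap, Nfya, Nfyb, Nfyc, Creb1 and Zxdc), the lowest adjusted p was 0.16, and the median log2 fold change was -0.02. The most abundant were the NF-Y subunits Nfya, at 16.1 ± 0.257 FPKM (DMSO) and 16.3 ± 0.535 FPKM (DASA-58), and Nfyc, at 16.8 ± 0.917 FPKM and 15.5 ± 0.271 FPKM (SD, n = 3 each). Nfyc was the factor with the lowest adjusted p.

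On the route from interferon gamma to Ciita, 11 of 12 genes were tested, and 4 fell and 1 rose, with a median log2 fold change of -0.11 (all genes tested, 7.28% lower and 4.24% higher, so that 1 of 11 higher is near the background). Ifng, the gene of interferon gamma, was not analysed here. Prdm1, which encodes BLIMP-1, a repressor of Ciita in plasma cells, fell from 6.00 ± 0.499 to 3.76 ± 0.408 FPKM (log2 fold change -0.56, standard error 0.078, adjusted p = 0.0044, limma). Jak2, a kinase on the interferon gamma receptor, fell from 12.9 ± 0.492 to 11.2 ± 0.0105 FPKM (log2 fold change -0.19, adjusted p = 0.019, limma). Irf1, an activator of the Ciita promoter, fell from 18.0 ± 0.941 to 15.8 ± 0.568 FPKM (log2 fold change -0.18, adjusted p = 0.048, limma). Spi1, which encodes the myeloid factor PU.1, fell from 255.7 ± 5.01 to 232.2 ± 2.96 FPKM (log2 fold change -0.14, adjusted p = 0.014, limma), and Ifngr1, the ligand-binding chain of the receptor, rose from 122.1 ± 2.07 to 132.5 ± 2.53 FPKM (log2 fold change 0.12, adjusted p = 0.032, limma). The genes that fell thus include both activators of Ciita and a repressor of it. Of these calls, Irf1 lost significance in 11 of 18 alternative fits, Ifngr1 in 9, Jak2 in 6, Spi1 in 5 and Prdm1 in 1 of 17.

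The endosomal list held the most abundant genes and the most calls. Of 10 tested genes 5 rose and 1 fell, and their median log2 fold change was 0.08. Over all genes tested 4.24% rose and 7.28% fell, so the share that fell is near that background. Ctss, the cathepsin that makes the last cuts in the invariant chain in most antigen-presenting cells, was at 1769.9, 1820.4 and 1870.6 FPKM with DMSO and 1992.9, 2005.2 and 2065.9 FPKM with DASA-58. All DASA-58 libraries were above all DMSO libraries, as for 11.8% of all genes tested. The log2 fold change of Ctss was 0.15 (standard error 0.029, adjusted p = 0.015, limma), although the call was lost in 6 of 18 alternative fits. Ctsb and Ctsd, abundant lysosomal proteases, rose from 936.3 ± 18.8 to 1141.5 ± 16.9 FPKM and from 776.4 ± 30.7 to 953.2 ± 53.9 FPKM, each with a log2 fold change of 0.29 (adjusted p = 6.3e-04 and 0.0072, limma). Ctsh, an aminopeptidase of the lysosome, was the gene of this list that rose the most, from 21.5 ± 0.439 to 29.1 ± 0.130 FPKM, with a log2 fold change of 0.42 (adjusted p = 2.5e-04, limma). Lgmn, the asparaginyl endopeptidase, rose from 416.8 ± 10.4 to 453.6 ± 4.83 FPKM (log2 fold change 0.12, adjusted p = 0.025, limma), and this call was lost in 7 of 18 alternative fits. Ifi30, which encodes GILT, the reductase that opens disulfide bonds of antigens, was the gene that fell, from 441.4 ± 10.9 to 386.5 ± 6.51 FPKM (log2 fold change -0.19, adjusted p = 0.0049, limma). Cathepsins digest many proteins in the lysosome besides the invariant chain.

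**Figure D4:**
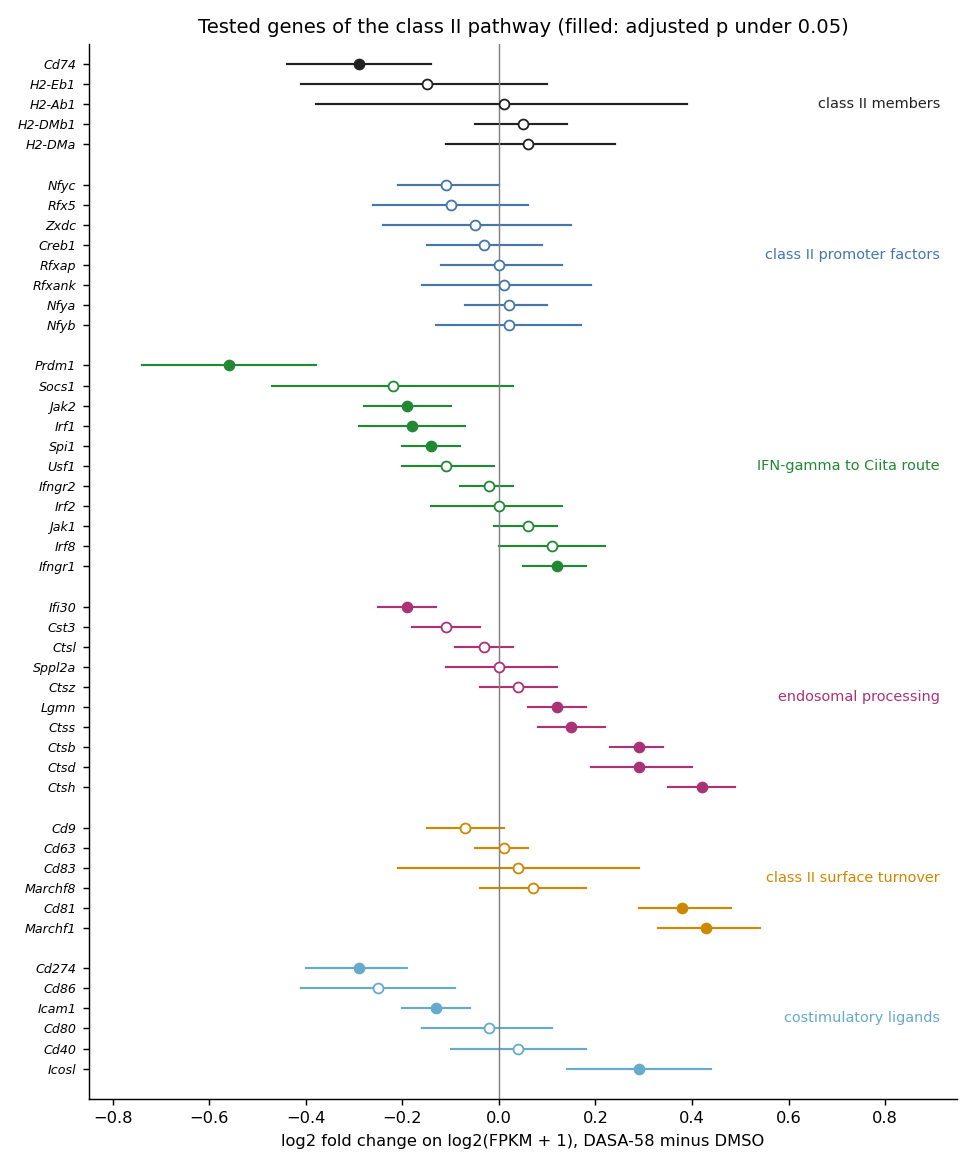
Log2 fold change on log2(FPKM + 1), DASA-58 minus DMSO, with 95% intervals, of the 5 class II genes tested and the 41 tested genes of the surrounding lists, grouped by role; filled points have an adjusted p under 0.05. Of the class II genes only Cd74 is filled, at -0.29, and the largest changes are those of Marchf1 at 0.43, Ctsh at 0.42 and Prdm1 at -0.56.

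In the list drawn up for the turnover of class II on the cell surface, 2 of 6 tested rose and 0 fell. The median log2 fold change was 0.06 (background 4.24% higher and 7.28% lower). Whether each gene of this list, Cd81 among them, governs that turnover was not tested. Marchf1 (March1 in the annotation) encodes the membrane ligase that tags the class II beta chain and CD86 with ubiquitin and sends them to the lysosome. It was at 6.15, 5.88 and 6.29 FPKM with DMSO and 8.88, 8.35 and 8.58 FPKM with DASA-58, which is 140.9% of the DMSO mean. All DASA-58 libraries were above all DMSO libraries, as for 11.8% of all genes tested. The log2 fold change was 0.43 (adjusted p = 0.0011, limma, standard error 0.044). Cd81, a tetraspanin of the plasma membrane, rose from 28.4 ± 0.902 to 37.4 ± 1.75 FPKM (SD, n = 3 each; log2 fold change 0.38, adjusted p = 0.0015, limma). Among the ligands that accompany class II in T cell contact, 2 of 6 tested fell and 1 rose, against the same background, with a median log2 fold change of -0.08. Cd274, which encodes PD-L1, fell from 26.4 ± 1.36 to 21.3 ± 0.731 FPKM (log2 fold change -0.29, adjusted p = 0.0067, limma), and the adhesion ligand Icam1 fell from 51.9 ± 1.08 to 47.5 ± 0.785 FPKM (log2 fold change -0.13, adjusted p = 0.032, limma). Icosl, the ligand of ICOS, rose from 1.61 ± 0.0866 to 2.18 ± 0.0770 FPKM (log2 fold change 0.29, adjusted p = 0.027, limma). The calls of Icam1 and Icosl were lost in 11 of 18 and 8 of 17 alternative fits, whereas those of Marchf1, Cd81, Ctsb, Ctsh and Ifi30 were kept in all 18.

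**Figure D5:**
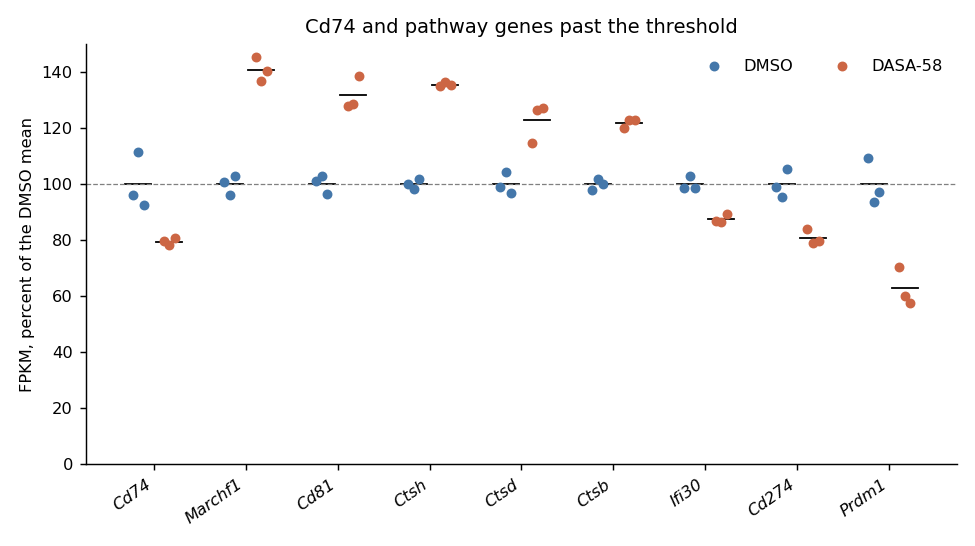
FPKM of Cd74 and of the 8 genes of the surrounding lists with the smallest adjusted p, as a percentage of each gene's DMSO mean, with 1 point per library (blue, DMSO; orange, DASA-58) and a bar at each group's mean. Marchf1 has the highest DASA-58 mean at 140.9% and Prdm1 the lowest at 62.7%.

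The cell types that could carry class II were checked by their markers. The 8 macrophage markers were all tested and summed to 1765.2 to 1807.1 FPKM with DMSO and 1963.9 to 1978.5 FPKM with DASA-58, and 4 of them rose (Adgre1, Cd68, Mertk and Mrc1) and 1 fell (Cd14). Over all genes tested 4.24% rose and 7.28% fell, which is the background for each marker list. The 1 of 8 that fell is near that share. Dendritic cell markers were low, with 9 of 10 in the table, 0 tested, and a sum of 2.25 to 2.58 FPKM with DMSO and 2.30 to 3.08 FPKM with DASA-58. Of these 9, 7 were below 1 FPKM in all libraries, among them Flt3 at a mean of 0.0204 and 0.0262 FPKM with DMSO and DASA-58. Itgax and Batf3 made up most of the sum, with Itgax at 0.965 and 1.02 FPKM, about the level of H2-Aa, and Batf3 at 0.676 and 1.17 FPKM with overlapping groups (60 and 104 fragments, a ratio of 171.5% with a 95% interval of 123.7 to 239.8% for counting error only). B cell markers summed to 1.76 to 2.11 FPKM and 2.12 to 2.41 FPKM, nearly all of it Cd79b, and Ms4a1, which encodes CD20, was at 0 in all DMSO libraries and at most 0.00888 FPKM with DASA-58. T and NK cell markers summed to 5.70 to 6.44 FPKM and 5.61 to 6.25 FPKM, most of it Cd4, which was at 5.56 and 5.42 FPKM. The other 5 were below 1 FPKM in all libraries, among them Cd3e at a mean of 0.0266 and 0.0174 FPKM. Monocyte markers went from 10.8 to 11.3 FPKM with DMSO to 8.12 to 9.03 FPKM with DASA-58, with 1 of 3 tested lower (Cx3cr1). Osteoclast markers summed to 772.8 to 827.9 FPKM with DMSO and 446.4 to 465.1 FPKM with DASA-58, and all 8 tested fell, with a median log2 fold change of -0.88. The 8 osteoclast markers, Cx3cr1 and 5 of the 8 macrophage markers were called in the same comparison as Cd74, Marchf1 and the cathepsins, and their part in those results was not tested. RNA was taken from whole cultures, where a loss of class II-bearing cells reads the same as a loss of transcript in each of them.

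The genes most like the mean of the class II genes were found by the Pearson correlation over the 6 libraries. It was taken between log2(FPKM + 1) of each tested gene and the mean of log2(FPKM + 1) over the 5 class II genes tested. That mean was 2.65, 2.60 and 2.64 with DMSO and 2.55, 2.63 and 2.52 with DASA-58. It does not stand for a pattern that the 5 genes share. DASA-58 replicate 2 was the lowest of the 6 libraries for Cd74 and the highest for H2-Ab1. The nearest genes were Baz1a (r = 0.987), Kpna6 (0.981), 4930524J08Rik (0.978), Camk2d (0.976) and Srsf3 (0.972). None of these 5 was called, with adjusted p-values from 0.25 to 0.44 (limma). The values are a description over 6 libraries of similar depth, picked as the highest of all genes tested.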

How the data were processed

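RNA of 6 BMM libraries, 3 with DMSO and 3 with DASA-58, was sequenced, and the authors deposited FPKM for 23504 genes in 1 table. The submitters' processing notes name HISAT2 2.1.0, HTSeq 0.6.0 and mm8, although the gene lengths implied by the values matched GENCODE mouse release M21 for most genes. The use of strand was not given in the sources used here. Exons of H2-DMa overlap those of Brd2 by 360 bases, and exons of Ciita overlap those of Dexi by 329 bases, on opposite strands. The values of H2-DMa and Ciita may therefore hold or lack fragments from these stretches. All value columns were mapped, so 0 were left out, and groups came from the treatment labels. Symbols were found for 23455 identifiers.

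The deposited FPKM values were compared as log2(FPKM + 1) with limma 3.58.1 in R 4.3.3 (lmFit, eBayes with trend, p-values adjusted by Benjamini-Hochberg across the 10965 genes whose mean reached 1 FPKM), and a gene was called at an adjusted p under 0.05. Fold changes on this scale understate the change of low genes. Single genes, sums and ratios were compared with exact two-sided permutation tests in SciPy 1.17.1. Whole fragments were recovered with the annotated length for 21557 genes (91.7%, within 0.02 fragments of a whole number in every library) and with a fitted length for 1765 more, for 99.2% in all. The 8 class II genes are among the latter, with the smallest length that gives whole fragments, and for H2-Aa and H2-DMa a multiple of these counts also lies within the annotated exon length. The depth was 18191560 to 18968556 fragments per library, and a count of 0 allows 3 fragments, or 0.158 to 0.165 FPKM on a gene of 1 kb, for counting error only. The fit was tested on simulated data.

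The class II genes and the lists were chosen with earlier results of these data known. A gene of the interferon gamma list is not reported here and was left out of the counts. Genes of the lists were named with values if called, at most 6 per list, or else as the 2 most abundant. Psmb9, Tap1, Psmb8, Tap2 and Brd2 were named for their position, and marker genes for the check of cell types. Alternatives were other pseudocounts, filters, scalings and variance models, the replicate number as a block, each library left out, voom weights on recovered fragments, and a threshold on unadjusted p and fold change. Promoters were searched and figures drawn with Python 3.11.15.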

Additional observations from a re-analysis of the deposited data

How the results depend on the processing

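Of 504 values recomputed under the alternatives, 403 were counted as kept. Gene log2 fold changes were kept if their direction and side of the threshold held. A count of calls was kept if it moved little, as from 9 to 6 higher surrounding genes without a trend. Sums, ratios and FPKM differences were kept if they stayed within the spread, even where their sign turned. For example, the log2 ratio of H2-DMb2 to H2-DMb1 went from 0.052 to -0.35 without DMSO replicate 2. Among the log2 fold changes 75 lost significance, 0 gained it and 4 turned their direction, and 22 counts moved. The number of class II genes called lower was 1 as reported and 0 with no filter, centring on the median, no variance shrinkage, the replicate block, or a call at an unadjusted p under 0.05 and an absolute log2 change above 1, and leaving out a library gave 0 to 1. The number called higher was 0 in every setting run. Same-numbered libraries did not deviate together (correlations of -0.0155, 0.0157 and -0.0162), so pairing by number was not detected, which does not exclude it. With the replicate block Cd74 had an adjusted p of 0.052 (limma), and 5 surrounding genes were lower and 7 higher. The 7 lower genes of the surrounding lists became 4 with quantile normalization, 4 without a trend and 2 without variance shrinkage, and 3 to 7 when a library was left out (3 without DASA-58 replicate 1 or 2, 4 without DMSO replicate 1 or 3 or DASA-58 replicate 3). The 9 higher ones became 4 with no filter and 5 without variance shrinkage, and 5 to 8 when a library was left out (5 without DMSO replicate 1 or DASA-58 replicate 2 or 3). H2-Ab1 turned to -0.0014 with a pseudocount of 5 and -0.0034 with equal library totals, and ranged from -0.18 to 0.10 with a library left out. The cause was not tested. Over all genes tested, 798 were lower and 465 higher (63.2% lower). The lower share was 45.8% when libraries were centred on the median, 49.5% after quantile normalization and 71.3% at equal library totals. With voom 1324 were lower and 740 higher, without variance shrinkage 314 and 227, with no filter 372 and 257, and without a trend 515 and 341. Leaving out a library gave 387 to 603 lower and 272 to 375 higher genes. Depth limits H2-Aa, H2-DMb2 and Ciita most, with 5 to 39 fragments per library.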
